A study of Mus musculus with 2 samples.

Results

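Of 7048 droplet barcodes from the mouse dorsal meninges, 116 were Ms4a1-positive B cells in which at most 1 of 7 follicular B cell genes was detected, 51 of 2699 barcodes in the Sham library and 65 of 4349 in the TBI library. These cells, called members hereafter, were chosen by their measured unique molecular identifiers (UMIs, the count of distinct transcript molecules). A barcode was kept with 150 to 5000 genes, at most 20% mitochondrial and at most 5% hemoglobin UMIs, which left 2043 Sham and 3773 TBI cells. A member then carried at least 2 UMIs of Cd79a and Cd79b together, at least 1 of Ms4a1 and 0 of Cd3e, at most 1 detected gene among Fcer2a, Ighd, Cr2, Fcmr, Cd55, Cxcr5 and Bank1, and at most 1 among Igll1, Rag1, Rag2, Vpreb1, Cecr2 and Cplx2. No level of these genes is a finding, because they made the choice.

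Both libraries were whole dorsal meninges of male wild-type mice, taken 1 week after the procedure. The strain is given as C57BL/6 in the labels and as C57BL/6J in the study's methods. Age is given as 10 weeks in one label and as 10 to 12 weeks in another. The TBI group had received a mild closed-skull injury and the Sham group the sham procedure. Meninges of 5 mice per group were pooled, digested with enzymes and sorted for live single cells, with no B cell marker in the gate. This gave 1 library per group. With 1 library per group no test between Sham and TBI was possible, so values are given side by side without a replicate check, and every interval below covers counting error only.

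B cells are made in the bone marrow, where precursors rearrange the immunoglobulin genes with the Rag1 and Rag2 recombinase and first pair a heavy chain with the surrogate light chain encoded by Igll1 and Vpreb1. Immature and transitional B cells that leave this stage carry surface IgM and little IgD, and on maturing into recirculating follicular B cells they gain IgD, CD23 (Fcer2a), the homing receptor CXCR5, and high MHC class II. The dura lies close to the marrow of the skull, and B cells of several maturation stages are known there.

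The members were compared with 2 other classes of the same filtered cells. Follicular-type cells met the same limits with at least 2 of the 7 follicular genes detected (283 Sham and 228 TBI cells), and precursor-type cells had at least 2 of the 6 precursor genes detected (76 and 97 cells). All cells with the Cd79 and Cd3e limits alone, 479 Sham and 496 TBI, are called B lineage cells. The classes were cut from the same cells by measured genes, so their differences are descriptions with no test.

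Of the markers given for the population, Cd79a and Ms4a1 entered the rule, and Iglc2 and Spib did not. The B cell receptor component Cd79a, the surface protein Ms4a1 (CD20), the lambda constant gene Iglc2 and the transcription factor Spib stood at 7099 and 6211, 3086 and 2650, 1731 and 1062, and 1058 and 994 counts per 1000000 UMIs (CPM) in Sham and TBI members. The rule allowed 1 follicular gene, so these genes were not absent: only 27 of the 116 members had none of the 7 detected and 89 had exactly 1. Fcmr, the IgM Fc receptor, stood at 377 CPM in Sham and 450 CPM in TBI members, against 969 and 911 CPM in follicular-type cells, and the adaptor Bank1 at 138 and 137 CPM against 459 and 413 CPM. No Igll1, Vpreb1, Rag1 or Rag2 UMI was found in any member, where 3 UMIs would correspond to 21.7 CPM in the Sham and 18.7 CPM in the TBI members. The other precursor genes of the rule were present, Cecr2 with 9 UMIs in Sham and 11 in TBI members (65.2 and 68.7 CPM, against 24.4 and 22.8 CPM in follicular-type cells) and Cplx2 with 7 and 9 UMIs (50.7 and 56.2 CPM, against 23.4 and 21.5 CPM).

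The promoters of 4 genes on which the description turns are shown first. H2-Aa and H2-Eb1 encode an alpha and a beta chain of the classical MHC class II molecules, H2-Ob a chain of the H2-O modulator of peptide loading, and Vpreb3 a protein of developing B cells that binds newly made immunoglobulin chains. Each line holds the 160 bases before the RefSeq start (GRCm38.p6), 5′ to 3′ on the strand of the gene, at chr17:34287824-34287983 (minus) for H2-Aa, chr17:34305707-34305866 (plus) for H2-Eb1, chr17:34238745-34238904 (plus) for H2-Ob and chr10:75948140-75948299 (plus) for Vpreb3. Capitals mark the Y box in the class II genes (ATTGG, or its reverse complement CCAAT) and the octamer in Vpreb3 (ATGCAAAT, or its reverse complement ATTTGCAT).
H2-Aa: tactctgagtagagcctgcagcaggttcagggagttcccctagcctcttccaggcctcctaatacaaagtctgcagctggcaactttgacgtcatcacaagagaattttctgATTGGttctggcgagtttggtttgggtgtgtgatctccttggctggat
H2-Eb1: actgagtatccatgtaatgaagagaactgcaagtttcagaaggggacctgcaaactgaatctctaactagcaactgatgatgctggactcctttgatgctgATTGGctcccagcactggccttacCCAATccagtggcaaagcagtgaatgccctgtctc
H2-Ob: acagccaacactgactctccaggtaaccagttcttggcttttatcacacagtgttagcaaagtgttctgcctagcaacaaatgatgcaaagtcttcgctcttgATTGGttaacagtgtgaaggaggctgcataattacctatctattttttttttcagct
Vpreb3: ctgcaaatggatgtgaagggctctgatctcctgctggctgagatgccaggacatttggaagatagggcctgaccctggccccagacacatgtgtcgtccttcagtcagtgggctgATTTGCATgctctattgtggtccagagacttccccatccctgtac
The Y box lay 48 bases before the start in H2-Aa, 59 and 35 bases before it in H2-Eb1 and 57 bases before it in H2-Ob, and the octamer 45 bases before the start of Vpreb3. Of the 12 genes of the class II list, 6 were matched in the RefSeq promoter set used (H2-Aa, H2-DMa, H2-DMb2, H2-Eb1, H2-Oa and H2-Ob). Cd40, Cd74, Cd83, Cd86, Ciita and H2-Ab1 were not matched and so not searched. Within 250 bases before the start, on either strand, all 6 matched genes held a Y box, as did 33.8% of all 32851 promoters. Vpreb3 was the only one of 10 matched immature B cell genes that held the octamer, which 1.60% of all promoters held. Cd24a and Cd93 of that list were not matched in the set used. The Y box is a known element of class II promoters and the octamer one of immunoglobulin promoters. A match of letters is a description of the sequence, not evidence of binding.

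Members were shallower than the other classes, and this bears on a choice made by genes not detected. The 51 Sham members summed to 138038 UMIs, with a median of 2680 per cell (range 536 to 9965), and the 65 TBI members to 160029 UMIs, with a median of 2245 (range 554 to 8684). Follicular-type cells had medians of 3278 and 2825 UMIs and precursor-type cells 3549 and 2928. When follicular-type cells of sufficient depth were thinned to the median depth of the members, 13 of 203 Sham cells (6.4%, exact binomial 95% interval 3.45% to 10.7%) and 22 of 171 TBI cells (12.9%, 8.24% to 18.8%) met the rule for members. At 1000 UMIs, 103 of 274 Sham cells (37.6%) and 73 of 220 TBI cells (33.2%) did, so cells with 2 or more follicular genes at full depth can meet the rule when shallow. Whether any member was such a cell was not tested. The differences from follicular-type cells were therefore also computed at matched depth.

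Members made up 2.50% of filtered Sham cells (exact binomial 95% interval 1.86% to 3.27%) and 1.72% of filtered TBI cells (1.33% to 2.19%). Within the B lineage they were 10.6% in Sham (8.03% to 13.8%) and 13.1% in TBI (10.3% to 16.4%), so the order of the libraries turned with the denominator. The difference over filtered cells was −0.77 percentage points (interval −1.63 to −0.019). It was −4.37 (−5.96 to −2.91) with cells thinned to 1000 UMIs and −0.56 (−1.33 to 0.13) without the hemoglobin limit. Among cells under 1% of UMIs on markers of other cell types it was −0.76 (−2.09 to 0.45). With none of the follicular genes allowed it turned to 0.037 (−0.40 to 0.38). The difference within the B lineage was 2.46 percentage points, with an interval from −1.63 to 6.54. As a share of members and follicular-type cells together they were 15.3% in Sham and 22.2% in TBI. The interval of that difference was 0.81 to 13.1 percentage points. Thinning every cell to 1000 UMIs left out 32 Sham and 31 TBI cells of the B lineage that were shallower. The B lineage limits were applied again to the thinned counts, so further cells left the denominator, more in TBI than in Sham. Of the cells still counted as B lineage, 143 of 419 in Sham (34.1%) and 138 of 400 in TBI (34.5%) met the rule. The shares thus moved with depth, and within the B lineage the interval of the difference between the libraries held 0 before and after thinning.

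The 20 barcodes present in both libraries included 1 Sham and 2 TBI members, none of which was a member in both. Among barcodes left out by the filters, 1 of 656 in Sham and 1 of 576 in TBI met the gene limits, both over the hemoglobin limit. Simulated doublets marked 1 Sham and 6 TBI members.

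Levels on either side of the limit are given for Vpreb3, Cd72, Gimap6 and class II genes. Members with 1 follicular gene and follicular-type cells with 2 had Vpreb3 levels of 2876 and 2404 CPM in Sham and 2698 and 2084 CPM in TBI. Cd72, a lectin-like receptor that dampens B cell receptor signals, stood at 1115 CPM with 1 gene and 739 CPM with 2 in Sham, and at 1232 and 726 CPM in TBI. Gimap6, a GTPase of lymphocyte survival, stood at 143 CPM with 1 gene and 246 CPM with 2 in Sham, and at 182 and 185 CPM in TBI. The sum of H2-Aa, H2-Ab1, H2-Eb1 and Cd74 was higher with 1 gene than with 2 in Sham, 29122 and 26912 CPM. In TBI it was lower, 22047 and 33771 CPM. The Sham sum with 1 gene included a predicted doublet of 9965 UMIs. Without that cell, all Sham members together had 22144 CPM, below the 26912 CPM with 2 genes, so the Sham order rested on 1 cell. The sum stood at 46530 and 37932 CPM in Sham and TBI cells with 4 genes. In cells with 5 to 7 follicular genes, Vpreb3 was at 500 CPM in Sham and 559 CPM in TBI, Cd72 at 348 and 265 CPM, Spib at 315 and 375 CPM, and Gimap6 at 537 and 449 CPM. Over both libraries, the 27 members with none of the 7 genes had 2863 CPM of Vpreb3 and 1030 CPM of Cd72. They had 856 CPM of Spib and 87.3 CPM of Gimap6. These levels rested on 9 Sham and 18 TBI cells with a median of 1367 UMIs. Of these, the Sham cells had 1680 CPM of Vpreb3 and the TBI cells 3194 CPM.

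**Figure D1:**
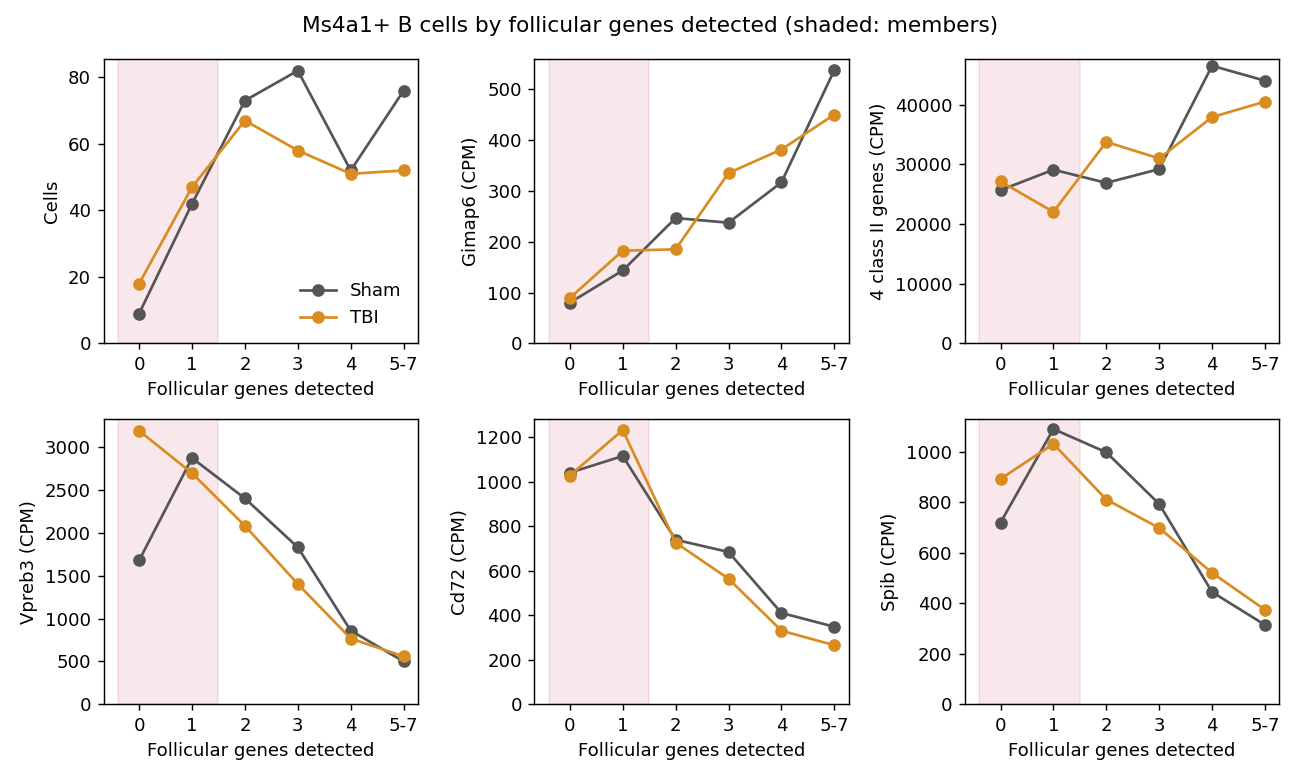
Number of cells and summed levels (CPM, linear axes) of Gimap6, the 4 class II genes H2-Aa, H2-Ab1, H2-Eb1 and Cd74, Vpreb3, Cd72 and Spib in Ms4a1-positive B cells by the number of the 7 follicular genes detected, 1 point per library, with the members shaded. From 1 gene to 5 to 7 genes Cd72 went from 1115 to 348 CPM and Gimap6 from 143 to 537 CPM in Sham. Vpreb3, Cd72 and Spib of the 9 Sham members with 0 genes stood below those with 1. In TBI so did Cd72 and Spib, while Vpreb3 stood at 3194 CPM with 0 genes and 2698 CPM with 1.

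Among 3047 genes with at least 100 UMIs in members and follicular-type cells together, 15 (0.492%) were past 2-fold higher in members in both libraries and 37 (1.21%) past 2-fold lower. The 2 classes therefore differed past that fold in few genes, and many of them were immunoglobulin V segments carried by a handful of cells. Outside the V segments the higher genes included Wfdc17, Hbb-bt, Coq7, 5031439G07Rik, Tcirg1, Lrmp, Emid1, Pafah1b3 and Cd72. Cd72 stood at 1108 and 1175 CPM in Sham and TBI members against 548 and 487 CPM in follicular-type cells. The log2 ratio of Cd72 was 1.02 in Sham (interval 0.75 to 1.28) and 1.27 in TBI (1.01 to 1.53). Lrmp, an endoplasmic reticulum membrane protein of lymphocytes, was at 514 and 531 CPM against 242 and 254 CPM. Vpreb3 lay just at the limit, at 2767 and 2837 CPM against 1393 and 1257 CPM, log2 ratios of 0.99 (0.82 to 1.15) and 1.18 (1.01 to 1.34).

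The genes past 2-fold lower in members included Gimap3 and Gimap6 of the survival list, and 1 of 11 measured genes of the mature recirculating list. Gimap3, a GTPase of lymphocyte survival, had 1 UMI in the Sham and 2 UMIs in the TBI members, 7.24 and 12.5 CPM, against 114 and 110 CPM in follicular-type cells, for log2 ratios of −3.40 (interval −9.29 to −1.47) and −2.83 (−6.21 to −1.24). Follicular-type cells alone reached the 100-UMI minimum for each lower gene named here, so the filter favours this direction and the ratios are given as values only. Gimap6, of the same family, had 138 and 156 CPM against 338 and 328 CPM, for ratios of −1.26 (−2.05 to −0.63) and −1.04 (−1.73 to −0.47). Ly6a (Sca-1), Ms4a4c and Shisa5, chosen after their values were seen, had 9 and 10, 4 and 2, and 25 and 32 UMIs in members, Ly6a at 65.2 and 62.5 CPM against 236 and 301 CPM. Not every gene of mature B cells was low. Tnfrsf13c, the receptor for the survival factor BAFF, stood at 782 and 906 CPM in members and at 790 and 765 CPM in follicular-type cells, and the trafficking regulator Klf2 at 1050 and 987 CPM against 1180 and 953 CPM.

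For Gimap3, Vpreb3 and Cd72 the differences were recomputed at matched depth. Over all depths Gimap3 had 1 UMI in Sham and 2 UMIs in TBI members, so its member levels below lie under the floor of 3 counts. Among cells with 3000 UMIs or more (36 members and 271 follicular-type cells of both libraries), Gimap3 stood at 12.7 CPM in members and 103 CPM in follicular-type cells. Vpreb3 stood at 2519 CPM in members and 1269 CPM in follicular-type cells, and Cd72 at 1095 and 505 CPM. From 1500 to under 3000 UMIs (46 members and 201 follicular-type cells), Gimap3 was at 9.41 and 124 CPM and Vpreb3 at 3444 and 1557 CPM. Under 1500 UMIs (34 members and 39 follicular-type cells), Gimap3 was at 0 and 243 CPM, Vpreb3 at 2129 and 584 CPM, and Cd72 at 1065 and 754 CPM, which is under 2-fold.

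Against precursor-type cells, 1607 genes had at least 100 UMIs in the 2 classes together. Of these, 74 (4.6%) were past 2-fold higher in members in both libraries and 115 (7.16%) past 2-fold lower. Among the higher genes outside the class II list was Ifi30, a lysosomal thiol reductase that unfolds antigens for class II loading, at 2224 and 2231 CPM in members and 357 and 211 CPM in precursor-type cells. The 7 proliferation genes that reached 100 UMIs were past 2-fold lower, but each reached that minimum in precursor-type cells alone, so the filter favours this direction and nothing is read from their count. The cycle markers Mki67 and Pclaf had 0 UMIs in members, at least 17.0-fold lower in Sham for both, and at least 15.5-fold and 22.4-fold lower in TBI, taking 3 counts per library as the floor. Birc5, a mitotic survivin, was also at 0 UMIs, at least 9.73-fold and 14.6-fold lower. Dntt, the terminal transferase that adds bases at V(D)J joins, was at 0 UMIs in members, at least 3.48-fold lower in Sham and 20.0-fold lower in TBI. These 4 genes were picked for being at 0. Hmgb2 had 13 and 16 UMIs in members and Top2a 1 in Sham, and the 12 proliferation genes summed to 645 and 725 CPM in members, 705 and 884 CPM in follicular-type cells and 5175 and 5743 CPM in precursor-type cells.

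Where the 3 classes were ordered by level, 4016 genes had at least 100 UMIs over all of them. In both libraries, 401 genes (9.99%) were highest in precursor-type cells, intermediate in members and lowest in follicular-type cells, and 212 (5.28%) had the opposite order. The members stood highest for 545 genes (13.6%) and lowest for 516 (12.8%). Because the classes were cut along maturation genes, an intermediate level is partly set by the choice, and the order is given as a description.

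All 11 measured genes of MHC class II presentation had the order from precursor-type cells up through members to follicular-type cells in both libraries. Over all genes, 5.28% had that order. Only 7 of the 11 reached 100 UMIs in members and precursor-type cells together. The others reached that minimum through follicular-type cells, so the filter favours this order and nothing is read from the count. H2-Aa stood at 303 and 335 CPM in Sham and TBI precursor-type cells, 3057 and 2018 CPM in members and 4036 and 3840 CPM in follicular-type cells. H2-Eb1 stood at 177 and 191, 1840 and 1431, and 2927 and 2714 CPM in the same order. The invariant chain Cd74, which guides class II molecules to the peptide loading compartment, stood at 3354 and 2007, 22262 and 18928, and 27008 and 27194 CPM. Against precursor-type cells, 6 of 7 measured class II genes were past 2-fold higher, as were 4.6% of all 1607 genes. The list medians were 2.31 and 2.50 on the log2 scale, where all genes had −0.17 and −0.15. Against follicular-type cells all 11 were lower in both libraries, as were 661 of all 3047 genes, and none was past 2-fold in both, with medians of −0.52 and −0.83 against 0.088 and 0.076 over all genes. The comparison with follicular-type cells was recomputed by depth. Among cells with 3000 UMIs or more, H2-Aa stood at 4252 CPM in Sham members and 4030 CPM in Sham follicular-type cells, and at 2499 and 3561 CPM in TBI, with the members' sums including the 2 RNA-rich cells described next. At that depth the sum of H2-Aa, H2-Ab1, H2-Eb1 and Cd74 stood at 28845 CPM in members and 34833 CPM in follicular-type cells over both libraries. Under 1500 UMIs that sum was 16058 CPM in members and 37809 CPM in follicular-type cells.

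Part of these sums came from single cells. In Sham, 1 member of 9965 UMIs gave 59.5% of the H2-Aa UMIs, and it also carried 14 Lyz2, 56 Cst3 and 7 Cd209a UMIs, which are genes of myeloid and dendritic cells. In TBI, 1 member of 8122 UMIs gave 41.5% of the H2-Aa UMIs and carried 136 Cst3 and 55 Tagln2 UMIs. Both were predicted doublets. Without these 2 cells, H2-Aa stood at 1335 CPM in Sham and 1244 CPM in TBI members, and H2-Eb1 at 711 and 816 CPM, still above the precursor-type and below the follicular-type levels. The median member had 177 class II UMIs (H2-Aa, H2-Ab1, H2-Eb1 and Cd74 together) per 10000 UMIs in Sham and 169 in TBI. The median follicular-type cell had 348 and 373, and the median precursor-type cell 6.86 and 6.78.

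**Figure D2:**
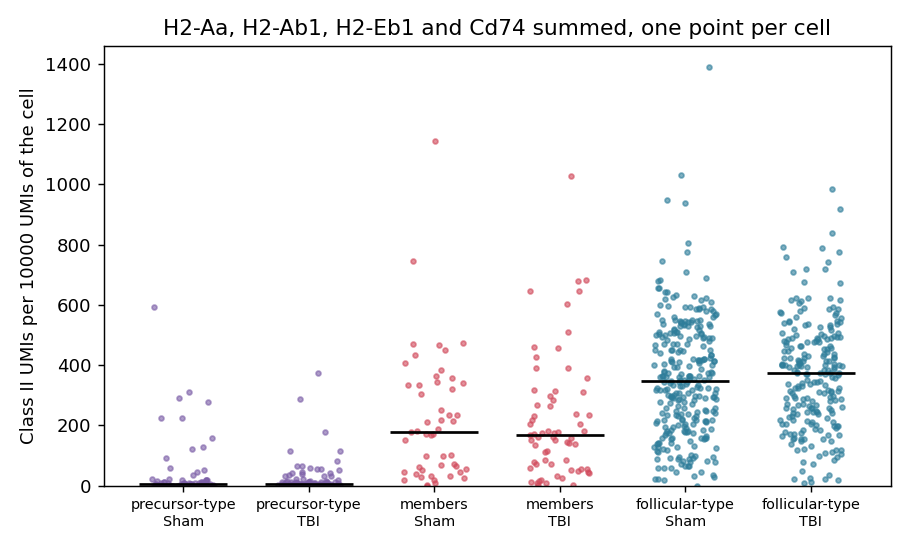
UMIs of H2-Aa, H2-Ab1, H2-Eb1 and Cd74 per 10000 UMIs of each cell (linear axis), 1 point per cell, with horizontal lines at the class medians in each library. Member medians of 177 and 169 lay between precursor-type medians of 6.86 and 6.78 and follicular-type medians of 348 and 373, and 1 member per library stood far above the others.

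Genes of immature and transitional B cells had mostly the reverse order. Of 12 measured, 7 were highest in precursor-type cells, intermediate in members and lowest in follicular-type cells in both libraries. These were Cd93, Vpreb3, Sox4, Myb, Il7r, Tcf3 and Atp1b1, and 9.99% of all genes had this order. Only 6 of the 12 reached 100 UMIs in members and follicular-type cells together. The others reached that minimum through precursor-type cells, so the filter favours this order and nothing is read from the count. Cd93, the antigen of the AA4.1 antibody that marks transitional B cells, stood at 234 and 251 CPM in precursor-type cells, 72.4 and 100 CPM in members and 21.4 and 33.6 CPM in follicular-type cells. The proto-oncogene Myb stood at 316 and 346, 72.4 and 106, and 14.2 and 18.8 CPM. The interleukin-7 receptor Il7r stood at 420 and 388, 43.5 and 75, and 5.09 and 14.8 CPM. The counts behind these levels were small, 10 and 16 UMIs of Cd93 and 6 and 12 UMIs of Il7r in Sham and TBI members. Against follicular-type cells, 5 of 6 measured immature genes were higher in members in both libraries, as were 1128 of all 3047 genes, with list medians of 0.53 and 0.89 on the log2 scale where all genes had 0.088 and 0.076, and none was past 2-fold in both.

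Inhibitors of B cell receptor signalling were highest in members for 4 of 7 measured genes (Cd72, Fcgr2b, Ptpn6 and Siglecg), against 13.6% of all genes. Siglecg, a sialic acid receptor that restrains receptor signals, stood at 1014 and 881 CPM in members, 656 and 601 CPM in follicular-type cells and 571 and 464 CPM in precursor-type cells. The phosphatase Ptpn6 (SHP-1) stood at 956 and 869, 876 and 859, and 196 and 146 CPM, and its difference from follicular-type cells was within counting error. Of 18 measured genes of receptor signalling itself, those highest in members included Lyn and Bcl10 (16.7% of the list, near the 13.6% of all genes), 3 (16.7%, against 9.99% of all genes) had the falling order (Syk, Blnk and Pik3ap1) and Btk was lowest in members. Of 17 measured B cell transcription factors, Spib, Spi1 and Irf8 were highest in members (17.6%, also near the share of all genes), while Ebf1, which sets B cell identity, stood at 3136 and 3215 CPM in precursor-type cells, 2260 and 1818 CPM in members and 1345 and 1198 CPM in follicular-type cells.

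**Figure D3:**
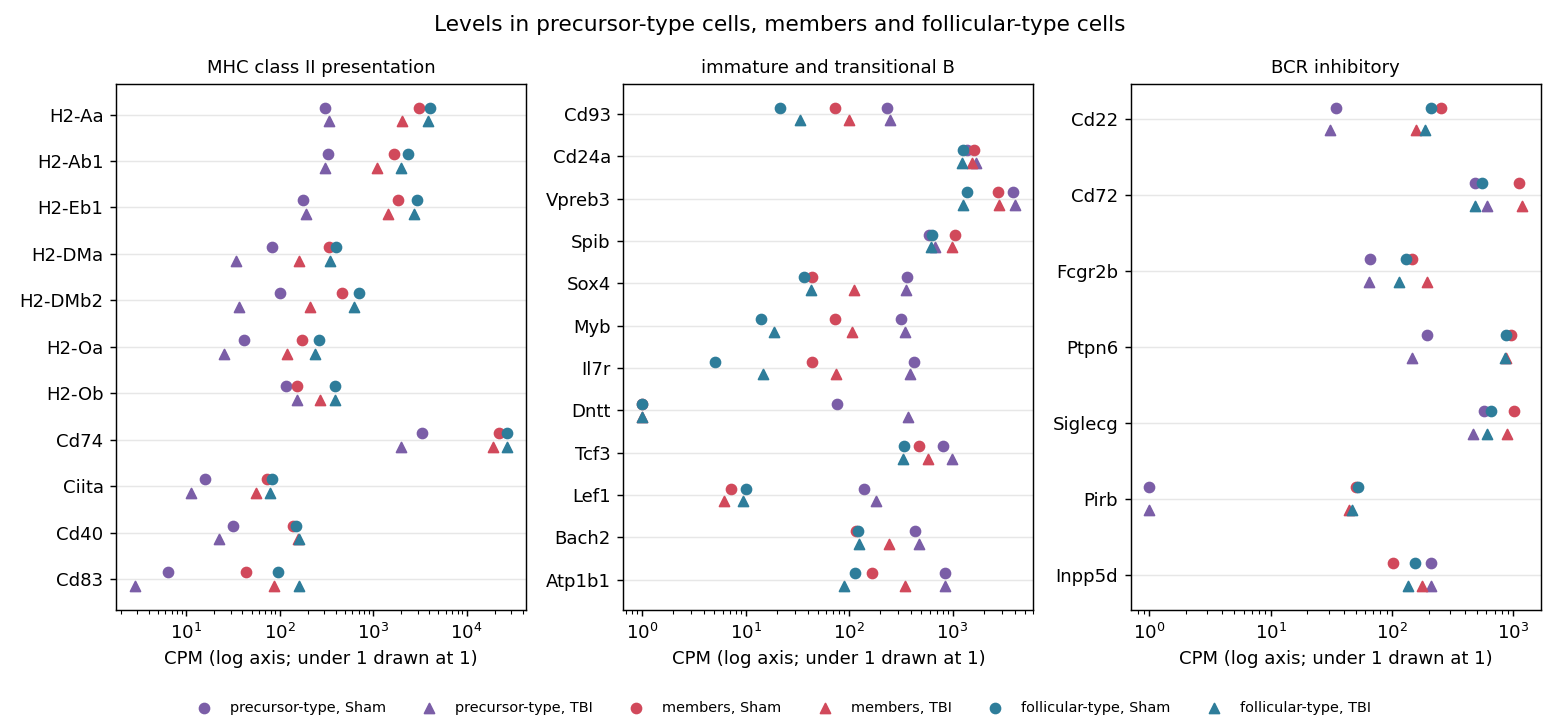
Level (CPM, log axis, levels under 1 drawn at 1) of each gene of class II presentation, immature B cells and receptor inhibition in precursor-type cells, members and follicular-type cells, 1 point per class and library. All 11 class II genes placed members between the other classes, and Cd72, Fcgr2b, Ptpn6 and Siglecg placed them highest.

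The survival list had a rising order for 5 of 8 genes (Bcl2, Tnfrsf13b, Gimap1, Gimap4 and Gimap6). The list of mature recirculating B cells had it for 5 of 11 (Ccr7, S1pr1, Il4ra, H2-DMa and Cd40), where 5.28% of all genes had the rising order. In each list only 5 genes reached 100 UMIs in members and precursor-type cells together. The others needed follicular-type cells to reach that minimum, so the filter favours the rising order and nothing is read from these counts. The activation marker Cd69 was lowest in members, as were 12.8% of all genes. Cd69 had 1 UMI in Sham and 10 in TBI members.

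Immunoglobulin transcripts of members were those of IgM cells. Ighm, the IgM heavy chain, stood at 3282 and 2824 CPM in members, 2101 and 2051 CPM in follicular-type cells and 1969 and 2063 CPM in precursor-type cells. The switched constant genes Ighg1, Ighg2b, Ighg2c, Ighg3 and Ighe had 0 UMIs in members, with the same upper limits of 21.7 and 18.7 CPM. Igha had 0 UMIs in Sham and 1 UMI in TBI. The plasma cell genes Jchain and Sdc1 were also at 0, but others of that list were detected. The list summed to 427 and 625 CPM in members, against 571 and 575 CPM in follicular-type cells. Of that list, Xbp1 was highest in members among the 3 classes in both libraries, and Mzb1 was lowest. Some markers of other B cell subsets were sparse. Cd9, of marginal zone and B1 cells, had 4 and 9 UMIs, and S1pr3, of marginal zone cells, 1 and 3. Cd5, of B1a cells, had 0 and 1, Bcl6, of germinal centre cells, 2 and 2, and Tbx21, of age-associated B cells, 0 in both. Mzb1, of the marginal zone and plasma cell lists, was not sparse, with 23 and 46 UMIs. The marginal zone list summed to 283 and 500 CPM in members, against 574 and 567 CPM in follicular-type cells. That list holds Cr2, a gene of the rule, at 7.24 and 0 CPM in members against 78.4 and 55.1 CPM in follicular-type cells. Part of the difference between these sums was therefore set by the choice, and Cr2 is also among the marginal zone genes counted next. Of the lists for these subsets, 4 of 8 marginal zone, 2 of 9 B1 and 0 of 7 germinal centre genes reached 10 UMIs over all members. So did 1 of 7 age-associated and 4 of 8 plasma cell genes, and 4533 of all 32285 genes.

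A B cell normally keeps 1 light chain. Among 96 members with at least 5 light chain constant UMIs, 4 had at least 90% kappa, 17 at least 90% lambda and 75 neither, 78.1% (exact binomial 95% interval 68.5% to 85.9%). Follicular-type cells had 407 of 463 mixed (87.9%) and precursor-type cells 39 of 93 (41.9%). Iglc1, Iglc2 and Iglc3 are nearly identical, so how reads were shared among them is uncertain, and they were summed here. In 1446 Sham and 3049 TBI filtered cells without any UMI of Cd79a, Cd79b or Ms4a1, with median depths of 2392 and 2469 UMIs, Igkc stood at 4.56 and 9.55 CPM and the lambda constant genes at 12.2 and 11.2 CPM. In members Igkc stood at 2644 and 1687 CPM and the lambda constant genes at 3919 and 2824 CPM, far above that background. A light chain V segment was found in 2.28% and 5.67% of the cells without B cell genes and a heavy chain V segment in 0.553% and 1.31%. V segments of the members were diverse. A light chain V segment was detected in 46 of 51 Sham and 62 of 65 TBI members, with 33 different leading segments in each library, and a heavy chain V segment in 43 and 60 members, with 28 and 39 different leading segments. The commonest leading light chain segments were Iglv1 in Sham and Igkv19-93 in TBI, in 8 members each. The genes that varied most among members relative to counting error were nearly all V segments, led by Igkv1-117 and Igkv3-1, the exception among the first 10 being Gm42418, a gene that overlaps ribosomal RNA sequence.

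When all B lineage cells were clustered without the genes of the rule, members did not form a cluster of their own. Of 116 members, 61 (52.6%) fell in cluster 2, led by Il4i1, Ifi30 and Cd40, together with 154 follicular-type cells. A further 34 (29.3%) fell in cluster 3, led by Ccnd2, Klhl14 and Dusp10, with 146 follicular-type cells, and 14 (12.1%) in cluster 4, led by Atp1b1, Il2ra and Il7r, with 122 precursor-type cells. Cluster 1, led by Gimap3, Gimap4 and Pglyrp1, held 189 follicular-type cells (37.0% of that class) and 2 members. Cluster 8, led by the endothelial genes Plvap and Vwf, held 3 members, all from TBI, and cluster 5, led by C1qb, held 2. The members of cluster 2 were 23 in Sham and 38 in TBI, those of cluster 3 were 23 and 11, and those of cluster 4 were 4 and 10.

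Within clusters 2 and 3, members and follicular-type cells lay closer together than over all cells. In these clusters Vpreb3 stood at 2605 CPM in 95 members and 1985 CPM in 300 follicular-type cells, and Cd72 at 1056 and 715 CPM. The 4 class II genes summed to 26630 CPM in members and 27760 CPM in follicular-type cells, and Gimap6 stood at 135 and 222 CPM. The members' class II sum included 834 UMIs of the TBI predicted doublet of 8122 UMIs, which fell in cluster 2. The near equality of the class II sums therefore rested partly on 1 cell. The 14 members of cluster 4 differed from the other members, with 5327 CPM of Vpreb3, 2324 CPM of Cd72 and 3891 CPM of the 4 class II genes. The members were therefore a mixture, most near the follicular-type cells of clusters 2 and 3 and a minority near the precursor-type cells.

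**Figure D4:**
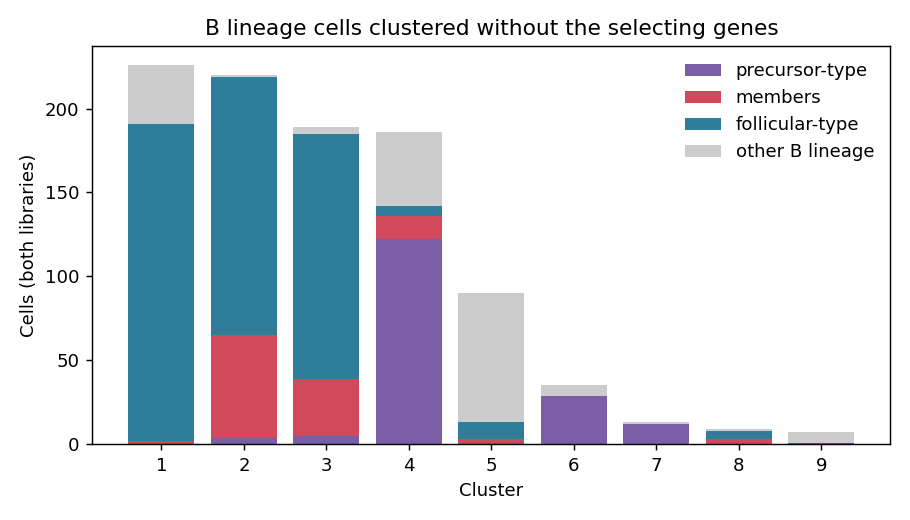
Number of B lineage cells of both libraries in each cluster (linear axis), stacked by class, after clustering without the genes that chose the classes. Clusters 2 and 3 held 61 and 34 of the 116 members beside 154 and 146 follicular-type cells, and cluster 4 held 14 beside 122 precursor-type cells.

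Between Sham and TBI members most genes differed by less than 1.5-fold. Of 395 genes with at least 100 UMIs over all members, 19 (4.81%) were past 1.5-fold higher in TBI and 25 (6.33%) past 1.5-fold lower. Of these, 6 and 6 were V segments, whose UMIs came from few cells: Igkv3-1 had 157 UMIs in 1 Sham member and 0 in TBI, and Igkv8-19 had 0 in Sham and 123 in 2 TBI members. Without the V segments 13 genes were higher and 19 lower. Calls higher in TBI made up 43.2% of the calls. That share was 31.7% after scaling by edgeR's trimmed mean (TMM) factor, 54.2% with a mean over cells and 25% with cells thinned to 1000 UMIs. In members with none of the follicular genes detected it was 80%, so the balance of directions moved with the setting.

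The higher genes included Lyz2 and Tyrobp, which are known genes of myeloid cells, as well as Cst3 and Tagln2. Lyz2, the lysozyme of macrophages, had 15 UMIs in Sham, 14 of them in 1 member, and 113 UMIs in TBI, 53 of them in 1 member. Tyrobp, a myeloid signalling adaptor, had 23 and 82 UMIs. Cst3 had 114 and 250 UMIs, a log2 ratio of 0.92 that was 0.34, under the fold, with predicted doublets removed and −0.18 both with at least 2 Ms4a1 UMIs and with cells thinned to 1000 UMIs, so its direction was not stable. Tagln2 had 43 and 113 UMIs, a log2 ratio of 1.17, which was 0.28 without the member with most class II UMIs in each library, 0.25 with predicted doublets removed and 0.056 with at least 2 Ms4a1 UMIs. The list of 10 macrophage genes summed to 18 UMIs (130 CPM) in Sham, with 7 of the 10 at 0 (C1qb, C1qc, Mrc1, Csf1r, Adgre1, Pf4 and Fcgr1), and to 314 UMIs (1962 CPM) in TBI, of which 279 came from 3 cells. Lyz2 was the most abundant of the list in both. A shortened list of endothelial genes summed to 2 and 44 UMIs, 40 of the latter in 3 cells, and fibroblast genes to 1 and 22 UMIs. Of the shortened list, Kdr was the most abundant in TBI with 14 UMIs and had 1 UMI in Sham, and Cldn5 was at 0 in both. The full list of 6 endothelial genes, which adds Pecam1, summed to 65.2 and 350 CPM. Without the 2 TBI members in which at least 1% of UMIs lay on markers of other cell types, both predicted doublets, 14 genes were higher and 20 lower, and Lyz2 and Tyrobp had log2 ratios of 1.99 and 1.19 in place of 2.66 and 1.60. Without the member with most class II UMIs in each library they moved the other way, Tyrobp to 2.39 (interval 1.48 to 3.58) and Lyz2, then with 1 UMI in Sham, to 5.96 (interval 4.03 to 11.85). The part of such RNA in the other differences was not tested. The 5 hemoglobin and red cell genes were higher in Sham, with 368 UMIs (2666 CPM) against 69 UMIs (431 CPM) in TBI, and Hba-a1, Hba-a2 and Hbb-bs were 3 of the 25 genes past 1.5-fold lower. The cell filter itself limits hemoglobin UMIs. Without that limit, which adds 1 cell per library, the log2 ratios went from −3.21 to −1.22 for Hba-a2, from −2.79 to −1.22 for Hba-a1 and from −2.41 to −0.83 for Hbb-bs. The part of free red cell RNA in this was not tested.

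Some genes past the fold rested partly on 1 cell, with 117 of 228 Sham and 74 of 176 TBI UMIs of H2-Ab1 and 87 of 220 TBI UMIs of Lars2 in 1 member. Dnajc7, a co-chaperone, had 116 UMIs in Sham and 235 in TBI, 840 and 1468 CPM, a log2 ratio of 0.80 (interval 0.48 to 1.14), which was 0.43 and under the fold with cells thinned to 1000 UMIs. It was detected in 37 of 51 and 49 of 65 members. Precursor-type cells had still higher Dnajc7, at 2726 and 2894 CPM. Igkc, the kappa constant gene, had 365 and 270 UMIs, a log2 ratio of −0.65 (−0.88 to −0.42). The nearly identical Iglc1, Iglc2 and Iglc3 summed to 541 and 452 UMIs, a ratio of −0.47 (−0.66 to −0.29) and under the fold, with Iglc1 alone at −0.85, Iglc2 at −0.70 and Iglc3 at 0.054. Grcc10 had 73 and 39 UMIs, a ratio of −1.11 (−1.72 to −0.54), which was −0.45 and likewise under the fold after thinning.

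**Figure D5:**
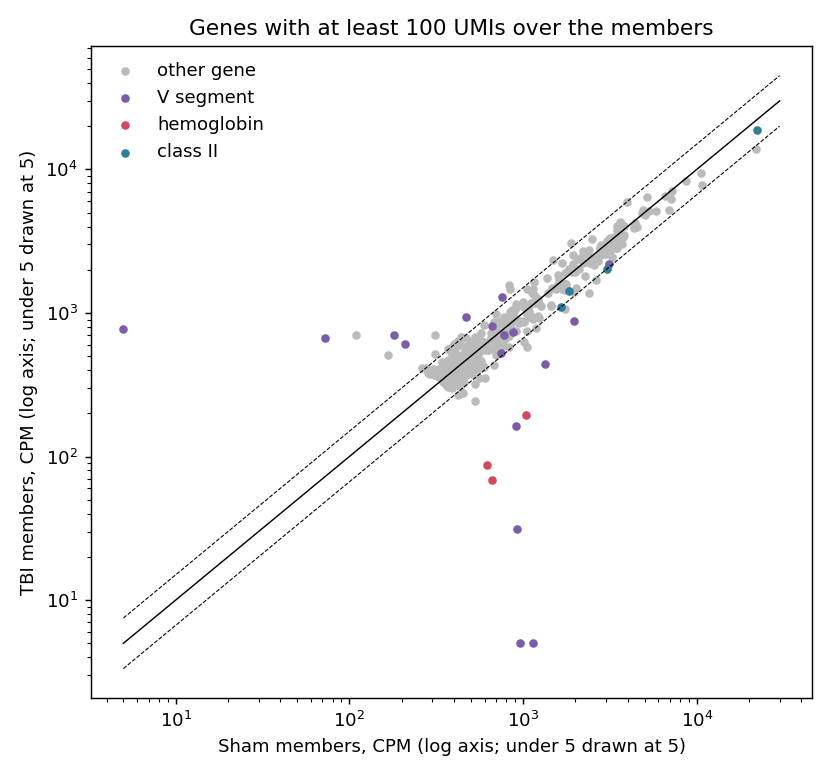
Level in TBI against Sham members (CPM, log axes, levels under 5 drawn at 5) for 395 genes with at least 100 UMIs, with the line of equality and dashed lines at 1.5-fold. Most genes lie between the dashed lines, and the genes far from equality include V segments, hemoglobin genes and Lyz2.

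Among genes of the lists with fewer than 100 UMIs, which were outside the count above, a few had intervals that left out 0. Id3, an inhibitor of E proteins, had 19 UMIs in Sham and 64 in TBI, 138 and 400 CPM, a log2 ratio of 1.51 (interval 0.78 to 2.36). Bcl11a, a transcription factor of B cell development, had 56 and 23 UMIs, a ratio of −1.48 (−2.26 to −0.77). Of the immature list, Atp1b1 had 23 and 55 UMIs, a ratio of 1.03 (0.32 to 1.81), and Bach2, a repressor of plasma cell fate, 16 and 39 UMIs, a ratio of 1.05 (0.20 to 2.01). These were chosen from many list genes after their values were seen.

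Lists are described by their medians. Over 4533 genes with at least 10 UMIs the median log2 ratio of TBI to Sham was 0.028, with 2378 above and 2155 below 0. Of these genes, 866 were past 1.5-fold higher and 745 past 1.5-fold lower. The 10 measured immature genes had a median of 0.48, with 8 above and 2 below 0 and 4 past 1.5-fold higher. The 18 measured interferon-induced genes had a median of 0.46, with 12 above 0, 6 past 1.5-fold higher and 3 past 1.5-fold lower, and the median turned to −0.26 in the 27 members with no follicular gene. Of these, Isg15, a ubiquitin-like interferon-induced protein, had 4 and 8 UMIs. The 18 receptor signalling genes had a median of −0.21, with 5 above and 13 below 0, and the 10 B lineage genes −0.29, with 1 above and 9 below 0. The 11 class II genes had a median of −0.36, with 3 above and 8 below 0, which became 0.016 when predicted doublets were removed and 1.18 in the 27 members with no follicular gene. H2-DMb2, which encodes a chain of the H2-DM peptide loader, had 64 and 34 UMIs, a log2 ratio of −1.12 (−1.77 to −0.50). Without the member with most class II UMIs in each library, log2 ratios of H2-Aa, H2-Ab1, H2-Eb1 and Cd74 were −0.10, −0.37, 0.20 and −0.22. With these members the ratios were −0.60, −0.59, −0.36 and −0.23. The lower H2-Aa and H2-Eb1 sums of TBI members thus moved with 1 cell per library.

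Among lists with few measured genes, the 5 immunoglobulin constant genes had a median of −0.65, and 4 genes each of the marginal zone, plasma cell and other precursor lists had medians of 0.82, 0.55 and 0.63. The 6 macrophage, 4 endothelial and 4 red cell genes had medians of 4.96, 3.69 and −2.60. The 10 MHC class I genes had a median of 0.13, the 10 homing genes 0.22, the 11 mature recirculating and 7 survival genes 0.17 each, the 17 transcription factors −0.090 and the 7 receptor inhibitors −0.14. The 8 B cell genes that the study names had a median of 0.20, with 5 above and 3 below 0. Genes induced by tissue dissociation, a sign of handling, had a median of 0.34, with 8 of 11 above 0 and 3 past 1.5-fold higher, and their part in the other differences was not tested.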

How the data were processed

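Gene-by-cell UMI counts of both libraries (10x Genomics 3′ chemistry, version 2 kit per the labels) were used as deposited by the authors. The submitters' notes name Cell Ranger 2.1.1 and mm10, the matrix header names 3.1.0, and the methods another version. Members and gene lists were chosen with earlier results of these data known. Cells were filtered and classed by the stated limits with no normalization. UMIs were summed per class and library, CPM taken from the sums, and log2 ratios computed with 0.5 added to each count. Intervals are 95% exact binomial (shares) or exact conditional (ratios) and cover counting error only; 3 counts set the floor. Pooled mice gave 1 library per group, so nothing was tested. Doublets were left in, and were predicted with 2 simulated doublets per cell and 40 neighbours. Clusters used 2000 variable genes, 20 components, 20 neighbours and Leiden resolution 0.8. Genes were named if they belonged to the rule or the lists, were among the 10 with most different TBI and Sham levels each way, the 12 each way against each class, or the 10 most variable over members; others are said to be chosen after their values were seen. Computations were tested on simulated data (Python 3.11.15, scanpy 1.11.5, scipy 1.17.1, edgeR 4.0.16 for a scaling factor only). Promoters came from RefSeq tables. Some genes are not reported here.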

Additional observations from a re-analysis of the deposited data

How the results depend on the processing

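No paired analysis was possible because each group has 1 library, and leaving out a replicate was not possible for the same reason. Members are few and shallow. Keeping cells with at least 2000 UMIs left each of the 6 counts of genes past a fold within 1.5 times. Allowing none of the follicular genes left 27 members, 32 genes higher and 8 lower in TBI, list medians of 1.18 for class II, −0.26 for interferon-induced and −0.57 for receptor signalling genes, 79 genes higher and 97 lower than in follicular-type cells, 24 higher than in precursor-type cells, and a difference in share of filtered cells of 0.037 percentage points in place of −0.77. With it, Igkv12-89 turned to −1.84, Igkv15-103 to −6.97 and Iglv3 to 1.62 on the log2 scale. At least 2 Ms4a1 UMIs gave a class II median of −0.97 and turned Cst3 to −0.18. Removing predicted doublets gave a class II median of 0.016. Thinning to 1000 UMIs gave 6 genes higher in TBI, medians of −0.073 for class II and 0.21 for immature genes, and a share difference of −4.37 points, and turned Igkv15-103 to −1.03, Cst3 to −0.18, Ighv6-3 to 0.17 and Iglv3 to 0.25. A mean over cells gave a class II median of −0.026 and turned Igkv15-103 to −0.14. A minimum of 50 UMIs gave 81 genes higher and 71 lower in TBI, 47 and 66 against follicular-type cells and 131 and 212 against precursor-type cells, and no minimum gave 3581 and 2554 in TBI. With TMM scaling 13 genes were higher and 28 lower in TBI. Calling a light chain at 80% left 63.5% of members mixed, and resolution 0.4 put 80.2% of members in 1 cluster. For the log2 ratios of the single genes named between TBI and Sham, 187 of 240 values under an alternative stayed within counting error, 44 moved by more and 9 reversed. The alternatives without members rich in RNA of other cell types, and without the member with most class II UMIs, were chosen after seeing the data. The cause of none of these shifts was tested.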
